A study of Rattus norvegicus with 9 samples.

Results

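The genes described here encode the enzymes that write, erase and read DNA methylation and histone marks. They were taken from a list of 48 rat genes by the gene symbol that the array annotation gives a probe set, and where a gene had several probe sets the one with the largest mean of all 9 arrays was used. Of these 48 members, 40 were named on the array, among 14506 genes named in all. The other 8 (Hdac9, Sirt1, Tet1, Tet2, Tet3, Mbd4, Suz12, Setdb1) were not named by a probe set with 1 symbol and were not analysed here.

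Blood, hippocampus (HC) and prefrontal cortex (PFC) were taken from the same 3 untreated male Wistar rats, numbered 2, 5 and 7, and each tissue of each rat was hybridised to 1 Affymetrix Rat Gene 1.0 ST array. The animals were 6 weeks old on arrival and were kept for a further week. Blood was whole blood stabilised in PAXgene tubes, and HC and PFC were punches of frozen brain slices, so each sample held all cell types of the tissue. Blood RNA and brain RNA were extracted with different kits, and kit and tissue cannot be told apart in any comparison of blood with brain.

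Histone acetyltransferases add acetyl groups to histone tails, which loosens chromatin, and histone deacetylases (HDACs) and the NAD-dependent sirtuins remove them. DNA methyltransferases place methyl groups on cytosines of CpG dinucleotides, and several proteins with a methyl-CpG-binding domain read them. Histone methyltransferases and demethylases set repressive or activating marks on histone H3. In the brain these enzymes are known for their part in memory formation and in the long-term response to stress and to drugs of abuse, and several are targets of psychiatric drug research.

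Nearly all of these genes were measured as present in blood and in both brain regions. Values are robust multi-array average (RMA) expression values on a log2 scale, so that a difference of 1 is a 2-fold difference, and presence in a tissue required a mean over 3 arrays above 6.2, the cut-off of the study's methods. By this cut-off blood held 39 of the 40 genes and each brain region 37, and 36 were present in all 3 tissues, against 45% of the 14506 genes. In 33 of the 40 genes every one of the 9 arrays was above 6.2. Dnmt3b, one of the enzymes that place new methyl groups on DNA, was the gene below the cut-off in every tissue, with 5.30, 5.06 and 5.72 in blood, 4.17, 4.33 and 4.38 in HC and 4.59, 4.13 and 4.41 in PFC (rats 2, 5 and 7, in that order here and in every triple that follows). Its means also lay under a background level, the 95th percentile of 1297 probe sets that detect odorant, pheromone or taste receptors, which stood at 5.53 for blood, 4.88 for HC and 4.85 for PFC. The other 39 genes were above that level in every tissue. Other means were at or under 6.2 in brain but above the receptor level, those of Hdac7 in HC and PFC, Suv39h1 in HC and Ezh2 in PFC.

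**Figure D1:**
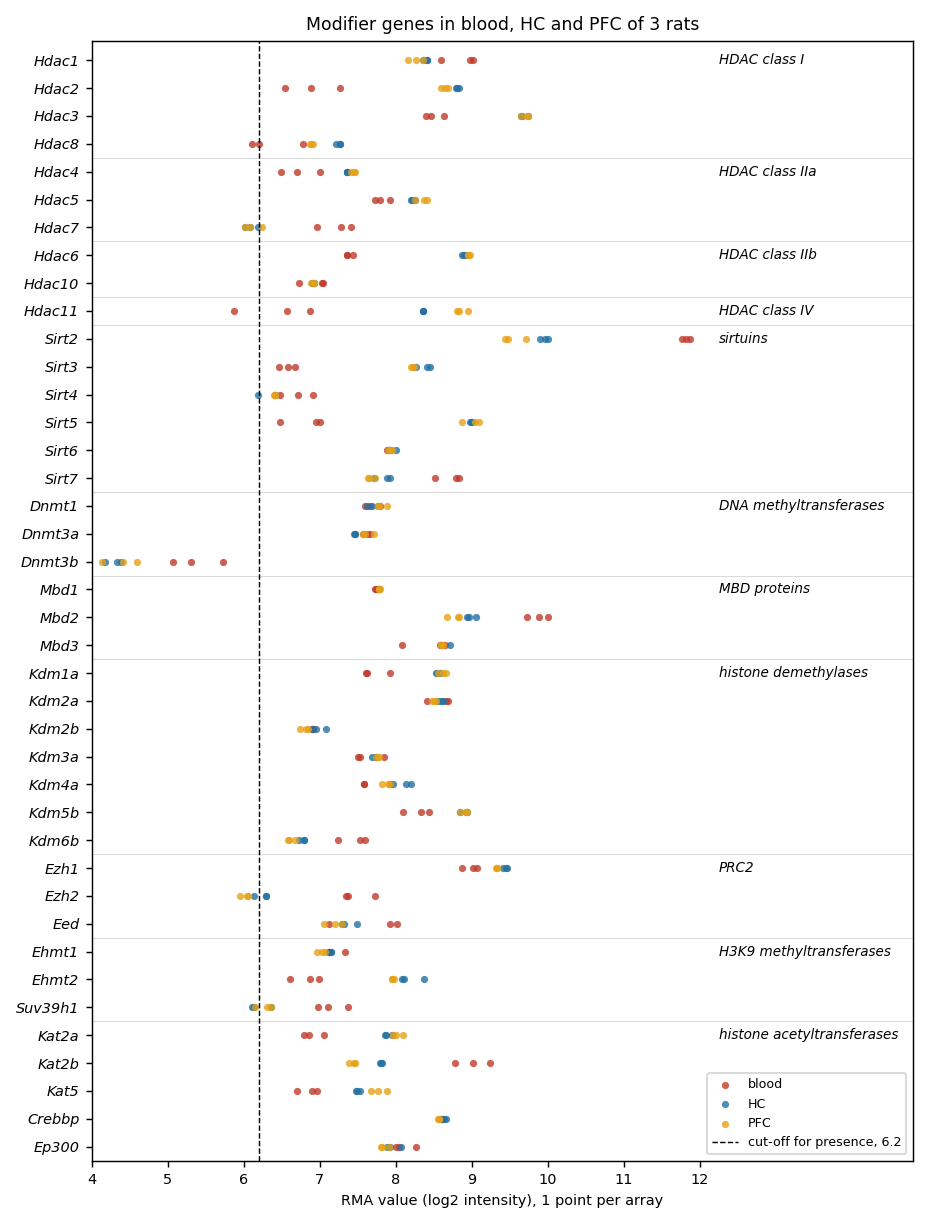
RMA value (log2 scale) of each of the 40 genes on each of the 9 arrays, grouped by family, with blood in red, HC in blue, PFC in orange and the cut-off of 6.2 as a dashed line. Blood points lie apart from the brain points for many genes, on either side, while HC and PFC points lie close together, and Dnmt3b lies below the line on every array.

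The 3 tissues were checked against marker genes. Averaged over 10 neuronal markers, the arrays gave 5.31 to 5.60 in blood, 10.88 to 10.94 in HC and 11.14 to 11.19 in PFC, and averaged over 10 T cell markers 8.71 to 9.39, 4.97 to 5.01 and 4.87 to 4.97. All 7 erythroid markers were above 6.2 in blood, where their average was 11.84 to 12.16, and 2 of them (Hbb and Sptb) were above it in each brain region. Since these are bulk tissues, a lower value of a gene can be fewer cells that express it or less RNA per cell, and these cannot be told apart.

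Between brain (the mean of HC and PFC) and blood, modifier genes differed in both directions and about as far one way as the other. The limma fit covered the 16884 probe sets with a mean above 6.2 in 1 or more tissues. After Benjamini-Hochberg adjustment over all of them it called 27 of the 39 members tested (69.2%) at an adjusted p below 0.05, against 86.2% of all probe sets tested. Of these, 16 were higher in brain, where the share of all probe sets was 48.8%, and 11 were higher in blood, where it was 37.4%. Each of the 27 went the same way in all 3 rats. In 25 of the 39 the 3 blood arrays did not overlap the 6 brain arrays, against 79.6% of all probe sets. The median difference of the members was 0.03, against 0.22 over all probe sets tested. Over the 9926 named genes tested with 1 probe set each, as for the members, 55.1% were higher in brain and 30.9% higher in blood, and the median was 0.40.

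The zero of this scale depends on how the arrays are centred. Centring the arrays on 12 housekeeping genes lowered every brain minus blood difference by 0.44, and centring on the median of 10598 probe sets present in all tissues lowered it by 0.33. The housekeeping genes were not level themselves. As deposited, limma called 8 of the 12 higher in brain and 3 higher in blood, with differences from -1.93 (Rplp0) to 2.26 (Sdha). Which centring is nearest to the truth was not tested. With housekeeping centring, 11 members were higher in brain and 22 in blood (35.8% and 49% of all probe sets), and with median centring 13 and 22 (39.2% and 46.6%). The share of called members that were higher in brain was 59.3% as deposited, 33.3% with housekeeping centring and 37.1% with median centring. Under all 3 scalings the same 11 members were called higher in brain (Hdac2, Hdac3, Hdac6, Hdac11, Sirt3, Sirt5, Kdm1a, Kdm5b, Ehmt2, Kat2a, Kat5) and the same 11 higher in blood (Hdac1, Hdac7, Sirt2, Sirt4, Sirt7, Mbd2, Kdm6b, Ezh2, Suv39h1, Kat2b, Ep300). Hdac10, Sirt6, Dnmt1, Dnmt3a, Mbd1, Kdm2a, Kdm2b, Kdm3a, Eed, Ehmt1 and Crebbp, not called as deposited, were called higher in blood with both other centrings. HC and PFC were each called against the same blood arrays, with 16 members higher in HC and 10 higher in blood (83.9% of all probe sets called in either direction), and 15 higher in PFC and 12 higher in blood (84%).

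**Figure D2:**
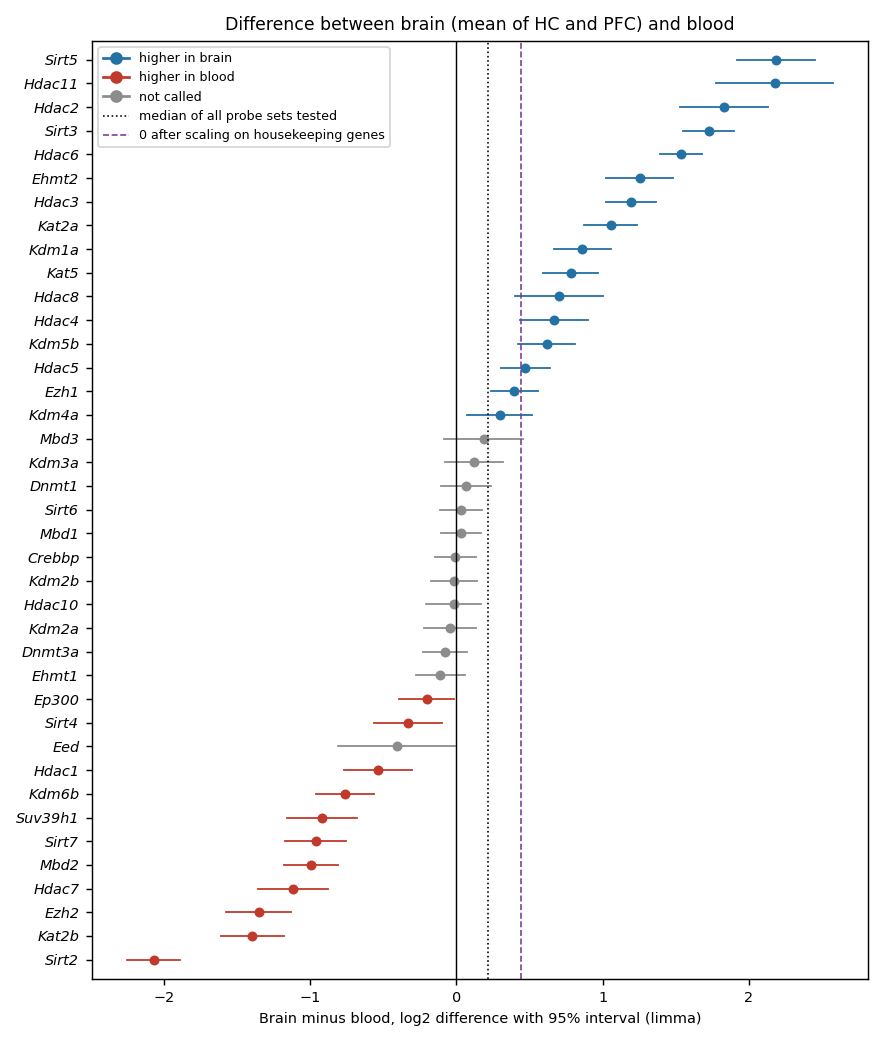
Brain minus blood difference (log2 scale) with its 95% interval for the 39 genes tested, blue where called higher in brain, red where called higher in blood and grey where not called; the lines mark 0, the median of all probe sets (0.22) and the place of 0 after housekeeping centring (0.44). The differences run from -2.07 for Sirt2 to 2.19 for Sirt5, and 5 of the 16 blue genes (Hdac8, Hdac4, Hdac5, Kdm4a, Ezh1) lose their call with housekeeping centring.

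The widest differences stood among the sirtuins, which divide between the nucleus, the cytoplasm and the mitochondria. Sirt2, a mainly cytoplasmic deacetylase that acts on tubulin and is known from myelinating cells, read 11.87, 11.81 and 11.77 in blood, 9.97, 10.00 and 9.89 in HC and 9.71, 9.48 and 9.44 in PFC. Every blood array was above every brain array, and the difference was -2.07 (SE 0.081, limma adjusted p = 4.54e-09). Sirt5, a mitochondrial enzyme that removes succinyl and malonyl groups, ran the other way, at 7.01, 6.48 and 6.94 in blood, 8.98, 8.99 and 9.0 in HC and 9.09, 9.05 and 8.87 in PFC. Its difference of 2.19 (SE 0.118, limma adjusted p = 4.76e-08) was the widest of the 16 genes higher in brain. Sirt3, the main mitochondrial deacetylase, was also higher in brain, with 6.67, 6.46 and 6.58 in blood against 8.40, 8.26 and 8.45 in HC and 8.23, 8.24 and 8.20 in PFC (difference 1.73, SE 0.0771). Sirt4, the other mitochondrial sirtuin, was slightly higher in blood, at 6.70 ± 0.223 (SD, n = 3) against 6.34 in HC and 6.41 in PFC, with a difference of -0.33 (SE 0.104, limma adjusted p = 0.0134) that lost its call without rat 5 (-0.18) or without rat 7 (-0.34). Sirt7, the nucleolar sirtuin, was higher in blood by 0.96, with 8.80, 8.51 and 8.83 there, 7.89, 7.71 and 7.93 in HC and 7.64, 7.72 and 7.63 in PFC. Sirt6, a nuclear enzyme linked to DNA repair, had tissue means of 7.90, 7.95 and 7.92 and was not called (95% interval of the difference -0.11 to 0.18).

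Among the class I HDACs, the nuclear deacetylases of corepressor complexes, the close relatives Hdac1 and Hdac2 went in opposite directions. Hdac2 read 6.88, 6.54 and 7.27 in blood, 8.83, 8.81 and 8.79 in HC and 8.59, 8.65 and 8.69 in PFC, a difference of 1.83 (SE 0.134, limma adjusted p = 5.02e-07). Hdac1 read 8.98, 8.59 and 9.02 in blood, 8.41, 8.41 and 8.35 in HC and 8.26, 8.16 and 8.36 in PFC, a difference of -0.54 (SE 0.105, limma adjusted p = 0.000773). In each gene the blood arrays lay wholly on one side of the brain arrays. A second probe set for Hdac1 gave -0.83 (limma adjusted p = 1.24e-05), also higher in blood. The only other member with a second probe set was Suv39h1, described with its family. Hdac3, the catalytic subunit of the nuclear receptor corepressor complexes, was higher in brain by 1.20 (SE 0.0762), with 8.46, 8.40 and 8.63 in blood and 9.64 to 9.75 over the 6 brain arrays. Hdac8, the remaining class I enzyme, was higher in brain by 0.70 as deposited, with means of 6.37 ± 0.365 in blood, 7.25 in HC and 6.89 in PFC (SD, n = 3). With housekeeping centring Hdac8 differed by 0.26 (limma adjusted p = 0.0597).

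Hdac11, the single class IV enzyme, and Hdac6, the cytoplasmic tubulin deacetylase, were the widest of the other deacetylases. Hdac11 read 6.57, 6.86 and 5.87 in blood, 8.36 in each HC array and 8.95, 8.83 and 8.81 in PFC. Its difference of 2.18 (SE 0.178, limma adjusted p = 1.16e-06) had the largest standard error of the members, and its 3 blood arrays spanned about a unit. Hdac6 read 7.36, 7.36 and 7.44 in blood, 8.87, 8.92 and 8.89 in HC and 8.97, 8.95 and 8.95 in PFC, and differed by 1.54 with one of the smallest errors (SE 0.0638, limma adjusted p = 6.85e-09). Its class IIb relative Hdac10 was not called, at -0.02 (95% interval -0.21 to 0.17). Class IIa enzymes shuttle between nucleus and cytoplasm. Hdac7 of this class, known from lymphocytes and vessel walls, was higher in blood, with 7.41, 6.96 and 7.28 there, 6.18, 6.02 and 6.08 in HC and 6.01, 6.24 and 6.08 in PFC (difference -1.12, SE 0.107, limma adjusted p = 3.94e-06). It entered the fit through blood alone. Hdac4 and Hdac5 were higher in brain as deposited, by 0.67 and 0.47, and their differences with housekeeping centring were 0.22 and 0.03, neither of them called.

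DNA methyltransferases and proteins with a methyl-CpG-binding domain gave few calls. Dnmt1, which copies methylation after replication, read 7.59, 7.79 and 7.66 in blood, 7.62, 7.76 and 7.69 in HC and 7.88, 7.78 and 7.76 in PFC. Dnmt3a, which sets new methylation and is known from neurons, read 7.66, 7.63 and 7.57 in blood, 7.44, 7.46 and 7.46 in HC and 7.71, 7.57 and 7.59 in PFC. The arrays of blood and brain overlapped for both, and the brain minus blood differences were 0.07 (95% interval -0.10 to 0.24) and -0.08 (-0.23 to 0.07). Neither of the 2 methyltransferases tested was called by limma as deposited, and 0 had an unadjusted p under 0.05. With housekeeping centring both were called lower in brain, Dnmt1 by -0.37 and Dnmt3a by -0.52. Of the genes for methyl-CpG-binding domain proteins, Mbd2, which recruits the NuRD corepressor complex to methylated DNA, was higher in blood. It read 10.00, 9.88 and 9.73 in blood, 8.93, 9.05 and 8.96 in HC and 8.68, 8.81 and 8.83 in PFC (difference -0.995, SE 0.0826, limma adjusted p = 1.3e-06). Mbd1 had tissue means from 7.75 to 7.78 and Mbd3, a NuRD subunit, from 8.44 to 8.64, and neither was called.

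Of the histone acetyltransferases, Kat2a (GCN5) and Kat2b (PCAF), alternative catalytic subunits of the same complexes, went opposite ways. Kat2b read 9.02, 9.24 and 8.78 in blood, 7.82, 7.80 and 7.79 in HC and 7.45, 7.39 and 7.46 in PFC, a difference of -1.40 (SE 0.0965, limma adjusted p = 3.16e-07). Kat2a read 6.79, 6.85 and 7.06 in blood, 7.87, 7.86 and 7.95 in HC and 7.96, 8.00 and 8.09 in PFC, a difference of 1.05 (SE 0.0803, limma adjusted p = 6.64e-07). Kat5 (TIP60), the catalytic subunit of the NuA4 complex, was higher in brain by 0.78 (SE 0.0831). Crebbp, the CREB-binding coactivator known from memory studies, was near level as deposited, at 8.59, 8.59 and 8.62 in blood, 8.66, 8.59 and 8.63 in HC and 8.57, 8.57 and 8.56 in PFC, and its difference of -0.01 had a 95% interval of -0.15 to 0.13. With housekeeping centring Crebbp was called higher in blood (-0.45, limma adjusted p = 0.00061). Its relative Ep300 was called higher in blood by a small margin (-0.20, SE 0.085, limma adjusted p = 0.0447), although its blood and brain arrays overlapped. That call was lost with the rat as a block (adjusted p = 0.059 by limma) and without blood replicate 2, HC replicate 2 or 5, or PFC replicate 5 or 7.

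The histone methyltransferases held a divided pair in Ezh1 and Ezh2. Ezh2, the catalytic subunit of Polycomb repressive complex 2 that is known from dividing cells, read 7.34, 7.73 and 7.37 in blood, 6.29, 6.29 and 6.13 in HC and 5.95, 6.05 and 6.06 in PFC (difference -1.35, SE 0.0995, limma adjusted p = 5.04e-07). Ezh1, the alternative subunit known from resting cells, read 8.87, 9.07 and 9.02 in blood, 9.45, 9.46 and 9.41 in HC and 9.33, 9.32 and 9.33 in PFC, a difference of 0.40 as deposited and -0.04 with housekeeping centring. Their partner Eed was not called (-0.41, 95% interval -0.81 to -0.01, limma adjusted p = 0.0523), and its blood arrays ranged from 7.12 to 8.01. Without blood replicate 5 it was called, at -0.69. Ehmt2 (G9a), which methylates histone H3 in euchromatin, read 6.86, 6.61 and 6.99 in blood, 8.11, 8.09 and 8.37 in HC and 7.95, 7.94 and 7.97 in PFC (difference 1.25, SE 0.102, limma adjusted p = 1.1e-06). Ehmt1, with which Ehmt2 forms a dimer, had means of 7.19, 7.14 and 7.02 and was not called. Suv39h1, which marks heterochromatin, was higher in blood, with 7.38, 6.97 and 7.11 there, 6.11, 6.13 and 6.36 in HC and 6.14, 6.31 and 6.36 in PFC (difference -0.92, SE 0.107). Its second probe set, with means of 4.57, 4.23 and 4.39, was under the receptor level in each tissue and was not tested.

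Among the histone demethylases, Kdm1a (LSD1), the flavin-dependent enzyme of the CoREST complex, was higher in brain, at 7.63, 7.60 and 7.93 in blood, 8.58, 8.53 and 8.54 in HC and 8.56, 8.66 and 8.62 in PFC (difference 0.86, SE 0.0864, limma adjusted p = 5.62e-06). Kdm6b (JMJD3), which opposes the Polycomb mark and is known from activated macrophages, was higher in blood, at 7.59, 7.24 and 7.53 there, 6.72, 6.79 and 6.79 in HC and 6.68, 6.59 and 6.58 in PFC (difference -0.76, SE 0.0886, limma adjusted p = 1.73e-05). The blood arrays of both genes lay wholly apart from the brain arrays. Kdm5b, which erases an activating mark, was higher in brain by 0.62 (SE 0.0864). Kdm4a was called higher in brain as deposited (SE 0.0988, limma adjusted p = 0.0176) and differed by -0.15 with housekeeping centring, and its call was also lost without blood replicate 2 or 5. Kdm2a, Kdm2b and Kdm3a were not called.

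Genes of proliferating cells also had higher levels in blood. The average of 13 such genes named on the array was 6.77 to 7.04 over the blood arrays, where 10 were above 6.2, and 5.42 to 5.49 in HC and 5.35 to 5.40 in PFC, where 2 were. No count of calls is given for this list, because 8 of its genes entered the fit through blood alone. The 2 present in every tissue were Pcna, the sliding clamp of DNA replication (difference -0.31, limma adjusted p = 0.0252), and Tyms, which makes thymidylate (-0.93, limma adjusted p = 5.76e-06). Their part in the differences of Ezh2, Suv39h1 and the other members higher in blood was not tested.

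The divided pairs were compared within each array, where any centring of the array cancels. The pairs were chosen after their values were seen and are described without a test. From blood to brain, Kat2a gained 2.45 ± 0.299 over Kat2b (mean and SD of the 3 rats, with 2.50, 2.72 and 2.13 in rats 2, 5 and 7). Hdac2 gained 2.36 ± 0.202 over Hdac1 (2.47, 2.49 and 2.13), and Ezh1 gained 1.75 ± 0.122 over Ezh2 (1.74, 1.88 and 1.63). Ehmt2 gained 1.36 ± 0.11 over Ehmt1 (1.38, 1.46 and 1.24). In Mbd3 over Mbd2 rat 2 stood apart, with 1.73 against 0.91 and 0.90 in the other rats. In these pairs the blood arrays did not overlap the brain arrays. Of 10 pairs computed, 3 overlapped, with -0.20 ± 0.17 for Ep300 over Crebbp, 0.03 ± 0.173 for Kdm2b over Kdm2a and -0.20 ± 0.387 for Hdac5 over Hdac4. The remaining pairs set class IIa enzymes against Hdac7 and did not overlap, with 1.59 ± 0.277 for Hdac5 and 1.78 ± 0.281 for Hdac4.

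**Figure D3:**
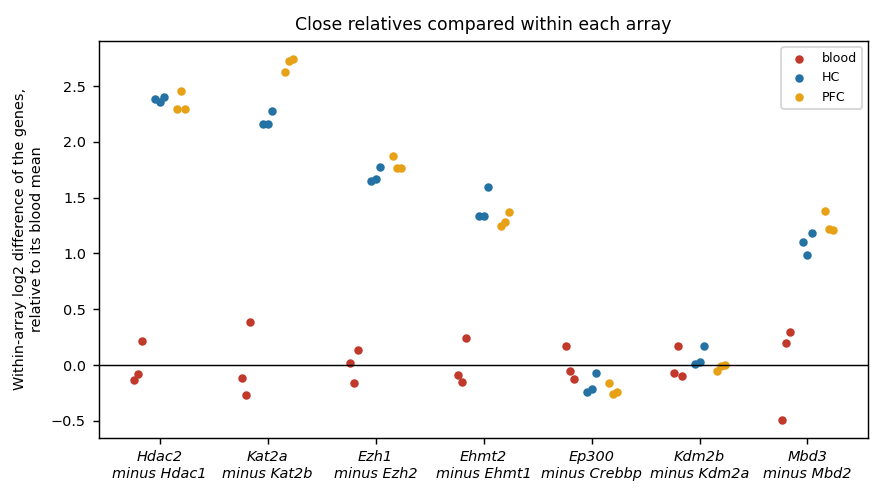
Within-array difference between 2 related genes (log2 scale, the first gene minus the second, set to 0 at its mean in blood) on each of the 9 arrays for 7 pairs, with blood in red, HC in blue and PFC in orange. The brain arrays of 5 pairs lie above all blood arrays, by 2.45 on average for Kat2a over Kat2b, and those of Ep300 over Crebbp and Kdm2b over Kdm2a overlap them.

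Differences between HC and PFC were small in size in these genes, and the number called depended on the arrays fitted. Of the 39 members tested, limma over all 9 arrays called 1 (2.56%), against 9.16% of all probe sets. In 38 of the 39 the regions differed by less than 0.5. No share over all probe sets is given here, so whether this is particular to these genes was not tested. The gene called was Sirt2, higher in HC in all 3 rats by 0.41 (SE 0.0935, limma adjusted p = 0.022), with the values given above. None (0) of the members was called higher in PFC. At an unadjusted limma p under 0.05 there were 3 of the 39 higher in HC and 2 higher in PFC. Of all 16884 probe sets tested, 1607 and 1591 were. The Sirt2 call was lost in limma when any single HC array was left out (adjusted p = 0.0606 to 0.105), and without PFC replicate 5 (0.11) or 7 (0.108), with differences between 0.36 and 0.44. Oligodendrocyte markers moved with it, since 6 of 8 were called higher in HC, with a median difference of 0.88 and array averages of 9.81 to 10.15 in HC and 8.93 to 9.46 in PFC. Their part in the difference of Sirt2 was not tested.

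The spread of the blood arrays entered this fit, because the 3 tissues shared 1 estimate of the error. The median SD of the members was 0.178 in blood, 0.0419 in HC and 0.0526 in PFC, and 35 of the 40 genes had a larger SD in blood than in either region. Over all probe sets tested the median SD was 0.221, 0.0679 and 0.0775, so the wider spread of blood was not particular to these genes. The same estimate served the comparison of brain with blood, where it can understate the spread of blood. The intervals, standard errors and p-values of that comparison can therefore be too narrow or too small. Hdac11, for example, had an SD of 0.51 in blood, 0.0013 in HC and 0.076 in PFC. In a fit of the 6 brain arrays alone, 6 members were called higher in HC and 2 higher in PFC, and 25.7% of all probe sets were called in either direction. The 6 were Sirt2, Kat2b (0.37 higher, limma adjusted p = 0.00109), Hdac8 (0.36 higher, adjusted p = 0.00115), Mbd2, Ezh2 and Hdac2, and the 2 were Hdac11 (0.50 higher in PFC, adjusted p = 0.00066) and Kat5 (0.27 higher in PFC, adjusted p = 0.0191). With the rat as a block in the same 6 arrays, which again called 25.7% of all probe sets, Ezh2 (adjusted p = 0.0688 by limma) and Hdac2 (adjusted p = 0.0793) were no longer called. The HC and PFC arrays did not overlap in 23 of the 39 members, against 42% of all probe sets. The 3 HC values of Hdac4 were identical in the deposited values, and 9 members had at least 2 identical HC values, which narrows the spread of that region. In PFC 3 members had such values. Some values were also identical across tissues, as 7.773 for Mbd1 (blood 2, HC 5 and 7, PFC 5 and 7) and 8.5941 for Crebbp (blood 2 and 5, HC 5). Both genes were near level between brain and blood as deposited. The origin of the identical values was not tested.

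**Figure D4:**
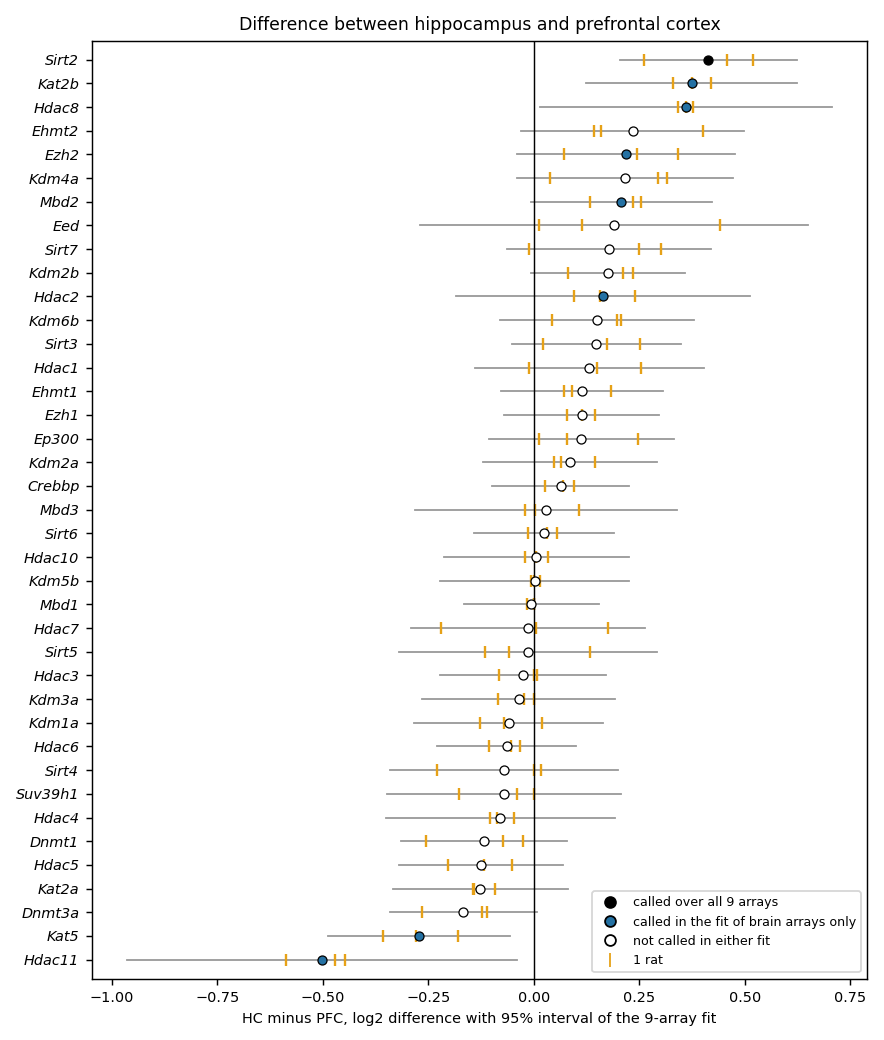
HC minus PFC difference (log2 scale) of the 39 genes tested, with the 95% interval of the 9-array fit and an orange tick for each of the 3 rats; black marks a gene called over all 9 arrays, blue one called in the fit of the 6 brain arrays and white one not called. Sirt2 at 0.41 is the black point, and the other points lie between -0.50 for Hdac11 and 0.37 for Kat2b.

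Promoters are shown for the 2 genes with the widest difference toward blood and for 2 genes at the brain end of the scale (Sirt5 and Hdac2), because these carry the contrast between the tissues. Each is the 250 bases before the RefSeq start of the gene on GRCr8, 5′ to 3′, with CpG dinucleotides, the substrate of the DNA methyltransferases, in capitals. No methylation was measured in these samples.
Sirt2 promoter, chr1:93181222-93181471, plus strand: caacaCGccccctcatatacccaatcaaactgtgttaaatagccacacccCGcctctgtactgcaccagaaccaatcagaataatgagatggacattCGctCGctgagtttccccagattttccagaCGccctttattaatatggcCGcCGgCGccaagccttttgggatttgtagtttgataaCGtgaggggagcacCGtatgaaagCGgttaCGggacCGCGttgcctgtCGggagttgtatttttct
Kat2b promoter, chr9:6798895-6799144, plus strand: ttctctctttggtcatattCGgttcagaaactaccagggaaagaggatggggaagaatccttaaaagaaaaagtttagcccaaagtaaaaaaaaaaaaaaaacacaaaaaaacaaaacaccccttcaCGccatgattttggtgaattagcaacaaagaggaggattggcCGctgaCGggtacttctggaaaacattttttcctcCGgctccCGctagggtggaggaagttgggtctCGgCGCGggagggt
Sirt5 promoter, chr17:21543057-21543306, minus strand: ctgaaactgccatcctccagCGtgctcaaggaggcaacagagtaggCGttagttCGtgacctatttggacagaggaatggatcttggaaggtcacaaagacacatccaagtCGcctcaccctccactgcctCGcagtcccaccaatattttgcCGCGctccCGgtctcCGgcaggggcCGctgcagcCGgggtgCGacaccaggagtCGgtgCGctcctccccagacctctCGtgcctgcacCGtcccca
Hdac2 promoter, chr20:42102877-42103126, plus strand: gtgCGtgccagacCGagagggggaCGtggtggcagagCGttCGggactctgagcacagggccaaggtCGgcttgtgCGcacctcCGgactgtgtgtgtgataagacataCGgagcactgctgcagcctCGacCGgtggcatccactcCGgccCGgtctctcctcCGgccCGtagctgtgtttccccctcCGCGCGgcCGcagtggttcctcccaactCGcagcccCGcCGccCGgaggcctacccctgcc

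Kat2b had the fewest CpG of these promoters (9, at 44.4% GC), followed by Sirt2 (15, at 50% GC), Sirt5 (16, at 61.2% GC) and Hdac2 (23, at 68.8% GC). Over the 35 members with a RefSeq promoter entry the count ran from 2 to 43 with a median of 17, against a median of 12 over 11968 genes on the array. Median GC content was 61.6% against 57.2%. A GC box (GGGCGG, either strand) stood in 21 of the 35 (60%) against 47.3% of all the promoters, and CCAAT (either strand) in 15 (42.9%) against 35.6%. These matches describe the letters of the window and no binding was measured.

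Other chromatin modifiers, from a list of 55 genes of which 42 were named and tested, also divided between the tissues. Of these, 16 were higher in brain (38.1%) and 12 higher in blood (28.6%), with a median of 0.08, where the shares of the 9926 named genes were 55.1% and 30.9% and their median 0.40. With housekeeping centring the list gave 11 (26.2%) and 24 (57.1%), where the named genes gave 40.7% and 43.1%. With median centring it gave 12 (28.6%) and 23 (54.8%), where they gave 44.4% and 40.3%. Higher in blood were Uhrf1, which guides Dnmt1 to newly copied DNA (6.96 ± 0.117 in blood, 5.85 in HC and 5.82 in PFC, SD, n = 3, difference -1.12, limma adjusted p = 3.09e-07), Gadd45a, linked to active demethylation (-1.51), and the histone methyltransferase Kmt5a (-1.53). Higher in brain were Zbtb38, a reader of methylated DNA (2.13), the coactivator Ncoa1 (2.01) and Setd3 (1.63). Uhrf1 thus differed by more than a unit while Dnmt1 differed by 0.07, both as deposited, and with housekeeping centring Dnmt1 stood at -0.37. Of the genes counted here, Uhrf1 and Gadd45g passed the 6.2 filter through blood alone and Zbtb38 through brain alone. Between HC and PFC limma called 1 gene of this list in each direction, Kmt5c (0.41 higher in HC, adjusted p = 0.0272) and Gadd45a (0.36 higher in PFC, adjusted p = 0.0443), or 4.76% of the list against 10.9% of the named genes. Gadd45a was not called with either centring.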

How the data were processed

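The submitters' processing notes name RMA, and the study's methods state that the authors quantile-normalized and RMA-transformed the array intensities. The deposited values were read as log2 values, since their base is not given in the sources used here. Of 29214 probe sets with values, 15310 carried 1 symbol, 323 several and 13581 none. The members and gene lists were chosen with earlier results of these data known. Tissues were compared with limma 3.58.1 in R 4.3.3 over 16884 probe sets with a mean above 6.2 in at least 1 tissue (tissue as a factor, no block, adjusted p below 0.05). The code was tested on simulated data. Presence used the mean alone, as detection p-values were not used here. Values per array were given for the 6 members with the widest called difference each way, those called between HC and PFC, and up to 2 more per family; from each other list, the 3 widest each way. Alternatives were other filters, centrings, blocks, variance settings and thresholds, and leaving out arrays or rats. Array number limits the precision. The p-values measure the spread of arrays within tissues, pooled over the 3 tissues of 3 rats and moderated by limma. HC and PFC of the same rat entered as separate arrays.

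By the labels, equal numbers mark the same rat. Deviations of same-rat samples correlated at 0.254, 0.137 and 0.287 between HC and PFC, and at 0.0518 or less between blood and either region. The highest correlation with another rat was -0.15, 0.0284 and 0.0274 between HC and PFC, below the same-rat value each time. Between blood and HC it was 0.0114, -0.0121 and -0.0117, against 0.0323, 0.046 and 0.0264 for the same rat. Between blood and PFC it was 0.0306, 0.118 and 0.082, above the same-rat values of -0.0351, -0.0792 and 0.0518.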

Additional observations from a re-analysis of the deposited data

How the results depend on the processing

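Among the members, the direction changed with centring for genes near 0. With housekeeping centring the brain minus blood difference became -0.41 for Sirt6, -0.37 for Dnmt1, -0.41 for Mbd1, -0.32 for Kdm3a, -0.15 for Kdm4a and -0.0445 for Ezh1, and with median centring -0.30, -0.27, -0.30, -0.21 and -0.04 for the first 5 of these. Mbd3, called under no centring, went from 0.19 to -0.26 and -0.15. Members called higher in blood rose from 11 to 22 with either centring. Against HC alone they were 22 with either (47.2% of all probe sets with housekeeping and 45.4% with median centring), and against PFC alone 23 and 20 (48.8% and 45.9%). With the rat as a fixed replicate block 16 members were higher in brain and 10 higher in blood, where 48.6% and 37.3% of all probe sets were. Ep300 lost its call, and no other call of a member between brain and blood changed. Sirt2 was still called between HC and PFC (limma adjusted p = 0.0323), where 8.23% of all probe sets were. Leaving out 1 array or rat gave 15 to 16 members higher in brain and 10 to 14 higher in blood, with no share over all probe sets given here.

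Members called between HC and PFC varied with the arrays used. At an adjusted p below 0.01 there were 0 higher in HC. The brain arrays alone gave 6 higher in HC and 2 higher in PFC (20.5% of the members, against 25.7% of all probe sets), and with the replicate block 4 and 2 (15.4%, against 25.7%). Leaving out 1 array or rat gave 0 to 3 higher in HC (3 without blood replicate 7, 2 without blood replicate 5) and 0 to 1 higher in PFC. No share over all probe sets is given for these fits or for the threshold of 0.01. With a cut-off of 7.2, 25 members were present in blood, with 31 in HC and 29 in PFC, and no share over all genes is given at this cut-off. The cause of these changes was not tested. Dnmt3b alone among the members was not above the receptor level, and this held in every tissue. Hdac7 in both brain regions, Suv39h1 in HC and Ezh2 in PFC were above that level but at or under 6.2. An effect of background on the differences of the other members was not tested.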

Other observations

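Subunits of the complexes in which these enzymes work were listed separately. Of 35 such genes, 25 were named on the array and 24 were tested by limma, with 14 higher in brain (58.3%) and 4 higher in blood (16.7%) as deposited and a median difference of 0.29. Of the 9926 named genes tested, 55.1% and 30.9% were called in these directions. With housekeeping centring the list gave 7 (29.2%) and 10 (41.7%), where the named genes gave 40.7% and 43.1%. With median centring it gave 7 (29.2%) and 9 (37.5%), where they gave 44.4% and 40.3%. Tada2a, an adaptor that serves both Kat2a and Kat2b, was higher in brain, with a mean of 6.09 ± 0.189 in blood, 7.85 ± 0.0414 in HC and 7.95 ± 0.0614 in PFC (SD, n = 3, difference 1.81, limma adjusted p = 2.58e-08). It entered the fit through brain alone. Rbbp7, a histone chaperone of the HDAC complexes and of Polycomb repressive complex 2, differed by 1.32, and Chd3, a remodeller of the NuRD complex, by 1.10. Subunits of the NuRD and Sin3 complexes went both ways as deposited. Gatad2a (-0.72), Mta2 (-0.48), Sin3a (-0.36) and Ing1 (-0.27) were higher in blood, and Mta1 (0.81), Ing2 (0.70) and Gatad2b (0.29) were higher in brain, as were Chd3 and Rbbp7.

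Between HC and PFC 4 of these 24 subunits were called (16.7%), where 9.16% of all probe sets and 10.9% of the named genes were. Ing2 and Ing1, the histone-reading subunits of Sin3 deacetylase complexes, were higher in PFC, with differences of -0.55 (limma adjusted p = 0.00691) and -0.50 (limma adjusted p = 0.0116). Ing2 had means of 7.67 in HC and 8.22 in PFC, and Ing1 of 7.08 and 7.58. Rnf2, the ubiquitin ligase of Polycomb repressive complex 1, was higher in HC by 0.41 (limma adjusted p = 0.00656), and Gatad2a by 0.50 (limma adjusted p = 0.0255).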
